A study of Mus musculus with 12 samples.

Results

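Respiratory complex I (NADH:ubiquinone oxidoreductase) was followed through the mRNAs of its nuclear-encoded subunits in the livers of tumour-bearing mice housed at 3 temperatures. The genes were chosen by name and type, as the protein-coding genes whose symbol begins with Ndufa, Ndufb, Ndufc, Ndufs or Ndufv followed by a digit, which gave 38 of the 55421 genes in the count table. The naming rule uses no measured level, although it was taken up with earlier results of these data known. All 38 had enough counts to be tested. The same naming pattern also matched 3 genes of other types (Ndufs6b, Ndufb4c and Ndufa11b), which were left out and had at most 1 count in any library.

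Complex I takes electrons from NADH, passes them along a chain of iron-sulphur clusters to ubiquinone and pumps protons across the inner mitochondrial membrane, and so drives ATP synthesis. Its core subunits, which carry out catalysis and pumping, are encoded partly in the nucleus and partly in mitochondrial DNA (the mt-Nd genes), and a larger set of accessory subunits, all nuclear, surrounds them and is needed for assembly and stability. In the liver, a tissue rich in mitochondria, this chain supplies the ATP used by gluconeogenesis and urea synthesis and reoxidises the NADH made by fatty acid oxidation.

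The mice were wild type and carried orthotopic tumours of E0771, a mouse mammary carcinoma cell line, in a mammary fat pad. They were kept at 6 °C, 22 °C or 29 °C with 1 week of acclimatisation, and liver taken on day 21 was sequenced as rRNA-depleted total RNA, with 4 libraries per temperature (libraries 1 to 4 at 6 °C, 5 to 8 at 22 °C and 9 to 12 at 29 °C). Every group carried the tumour, so each comparison is between housing temperatures of tumour-bearing animals, and tumour-free liver was not analysed here. The labels name both Balb/C and C57Bl6/J hosts and tie neither strain to a library, and they do not say that each library is a separate animal, so p-values measure the spread between libraries.

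Library totals ran from 7615585 to 19001126 counts, so that 3 counts correspond to 0.158 to 0.394 CPM, the library-scaled unit in which levels are given here. Hepatocyte markers summed to between 75300 and 190000 CPM in every library, as the tissue label says. There were 2 sets of libraries that stood apart. Libraries 1, 7, 8 and 9 held H2-Ea-ps, a class II histocompatibility locus, at 11.8 to 17.1 CPM, and the other 8 had no count of it. These libraries also gave more of their counts to mitochondrial rRNA, 0.662% to 2.27% against 0.0668% to 0.342% in the other 8. Libraries 3, 5 and 6 gave 0.605% to 1.66% of their counts to Gm26917, an rRNA-related transcript, against 4.03% to 8.70% in the other 9. The first set had 1, 2 and 1 libraries at 6, 22 and 29 °C, and the second had 1, 2 and 0. In bulk liver, fewer cells of a type and less RNA per cell cannot be told apart.

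The group of members as named includes genes outside complex I proper. Ndufa4 was first isolated with complex I and is now counted as a subunit of complex IV, cytochrome c oxidase, and Ndufa4l2 is its paralog, known as a hypoxia-induced gene. The remaining 36 comprise 7 nuclear core subunits, 12 accessory subunits of the alpha series, 11 of the beta series, which sit mainly in the distal membrane arm, and 6 further accessory subunits (Ndufc1, Ndufc2, Ndufs4, Ndufs5, Ndufs6 and Ndufv3). Ndufb1-ps is typed as protein-coding in the table despite the pseudogene suffix of its symbol. Ndufab1, the mitochondrial acyl carrier protein that is also a subunit of complex I, has a symbol outside the pattern and is described with the related genes.

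Levels differed widely between members. Per kilobase of exon, the mean level over the 12 libraries was among the highest for Ndufa8, with 56.1, and Ndufb9, with 49.8 CPM per kilobase. The lowest were Ndufa4l2 with 0.974, Ndufs5 with 1.30 and Ndufa12 with 2.28 CPM per kilobase. Transcripts of Ndufs5 and Ndufa12 each have a near copy annotated as a pseudogene, 99.4% identical over 319 bases and 99.5% over 402 bases. How reads that match both a gene and its copy were counted is not given, so their low places are uncertain. Ndufa4l2 kept the last place when the longest transcript was used as the length (1.07 CPM per kilobase), while Ndufa7 moved from rank 22 to rank 7 and Ndufs1 from rank 23 to rank 12. The members are short genes, with a median of 1438 exonic bases (range 419 to 8086) against 4493 for the 12632 protein-coding genes tested.

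The comparison of 29 °C with 6 °C asks how the livers of mice kept near thermoneutrality differed from those of mice kept in the cold. Transcripts of Ndufa4 and of Ndufs8, a core subunit that carries iron-sulphur clusters in the arm leading to ubiquinone, were lower at 29 °C, and both passed the test. The other 36 members did not pass. By edgeR's quasi-likelihood test with Benjamini-Hochberg adjustment over 15006 genes, 2 of 38 members were lower and 0 were higher, where 2.53% of all genes tested were called, 1.39% lower and 1.13% higher. The estimate was negative for 36 of 38 members and positive for 2, against 49.9% and 50.1% of all genes, and the median log2 fold change was -0.42, against 0.001 over all genes. At an unadjusted p under 0.05 the counts were 19 members lower (9.61% of all genes) and 0 higher (9.80%).

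Ndufa4 (ENSMUSG00000029632.7, chr6:11900292-11907497, minus strand, GRCm38) had levels of 60.6, 61.7, 63.1 and 70.2 CPM at 6 °C. They were 58.9, 56.3, 49.4 and 50.8 CPM at 22 °C and 37.5, 46.3, 37.9 and 46.5 CPM at 29 °C. The groups were fully ordered: every 6 °C library lay above every 22 °C library, and every 22 °C library above every 29 °C library. Ndufa4 was the only member ordered in this way, as were 18 genes (0.12%) of all those tested. Means were 63.9 ± 4.31, 53.8 ± 4.49 and 42.1 ± 5.01 CPM (SD, n = 4 libraries each). Between 29 °C and 6 °C the log2 fold change was -0.60 (SE 0.12), with an adjusted p of 0.0248 by edgeR. The steps on either side of 22 °C did not pass: the log2 difference was -0.36 (SE 0.12, adjusted p = 0.227) for 29 °C against 22 °C and 0.25 (SE 0.12, adjusted p = 0.439) for 6 °C against 22 °C. The call of 29 °C against 6 °C held in 18 of 24 alternative fits, with adjusted p from 0.000659 to 0.0829, and was lost without library 3 (0.0660), 4 (0.0829), 9 (0.0547), 10 (0.0696) or 11 (0.0761) and without the 3 libraries lowest in Gm26917 (0.0599). The nearest copy of Ndufa4 among annotated pseudogene transcripts, the only ones searched, was Gm45446. It matched 90.9% over 220 bases and had at most 2 counts in a library.

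Ndufs8 (ENSMUSG00000059734.7, chr19:3908863-3912774, minus strand) stood at 31.0, 27.6, 33.1 and 28.8 CPM at 6 °C. The values were 22.9, 23.0, 26.9 and 21.1 CPM at 22 °C and 20.9, 21.4, 15.2 and 20.7 CPM at 29 °C. All 6 °C libraries were above all others, while the 22 °C and 29 °C libraries overlapped. The means were 30.1 ± 2.44, 23.5 ± 2.48 and 19.6 ± 2.89 CPM (SD, n = 4), and the log2 fold change of 29 °C against 6 °C was -0.63 (SE 0.14, adjusted p = 0.0388, edgeR). Against 22 °C the differences were -0.27 at 29 °C (adjusted p = 0.398) and 0.36 at 6 °C (adjusted p = 0.344). This call rested on more of the libraries than that of Ndufa4: it held in 14 of 24 alternatives (adjusted p from 0.00375 to 0.113). It was lost without library 1 (0.0610), 3 (0.113), 4 (0.0916), 5 (0.0504), 9 (0.0592), 10 (0.0928), 11 (0.0974) or 12 (0.0719), with no low-count filter (0.0633) and without the 3 libraries lowest in Gm26917 (0.104).

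The bases before the RefSeq transcription start of both called members are shown because no other member passed the edgeR test over all 12 libraries. Capitals mark matches to the motifs searched, which are spelled out with the other promoters further on.
Ndufa4 (chr6:11907451-11907700, minus strand): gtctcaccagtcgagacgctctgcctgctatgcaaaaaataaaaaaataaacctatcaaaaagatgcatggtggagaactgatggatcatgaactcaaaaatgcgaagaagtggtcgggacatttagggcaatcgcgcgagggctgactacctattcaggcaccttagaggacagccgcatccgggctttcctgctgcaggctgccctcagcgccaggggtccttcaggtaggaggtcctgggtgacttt
Ndufs8 (chr19:3912775-3913024, minus strand): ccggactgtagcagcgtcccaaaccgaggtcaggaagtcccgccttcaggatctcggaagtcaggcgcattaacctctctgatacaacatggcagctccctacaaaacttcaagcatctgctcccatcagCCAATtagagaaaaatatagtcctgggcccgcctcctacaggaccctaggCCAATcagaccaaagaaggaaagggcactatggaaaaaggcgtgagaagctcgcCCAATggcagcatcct
These are the 250 bases before the start annotated by RefSeq on GRCm38.p6. The RefSeq start of Ndufa4 lies inside the gene as GENCODE annotates it, so the last bases of that stretch, from chr6:11907497 down to chr6:11907451, are within the gene's coordinates given above. The Ndufs8 stretch holds 3 CCAAT boxes on the gene's strand, at positions -120, -70 and -16 from the start. The Ndufa4 stretch holds none of the letters searched. GC content was 51.6% for Ndufa4 and 53.2% for Ndufs8.

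**Figure D1:**
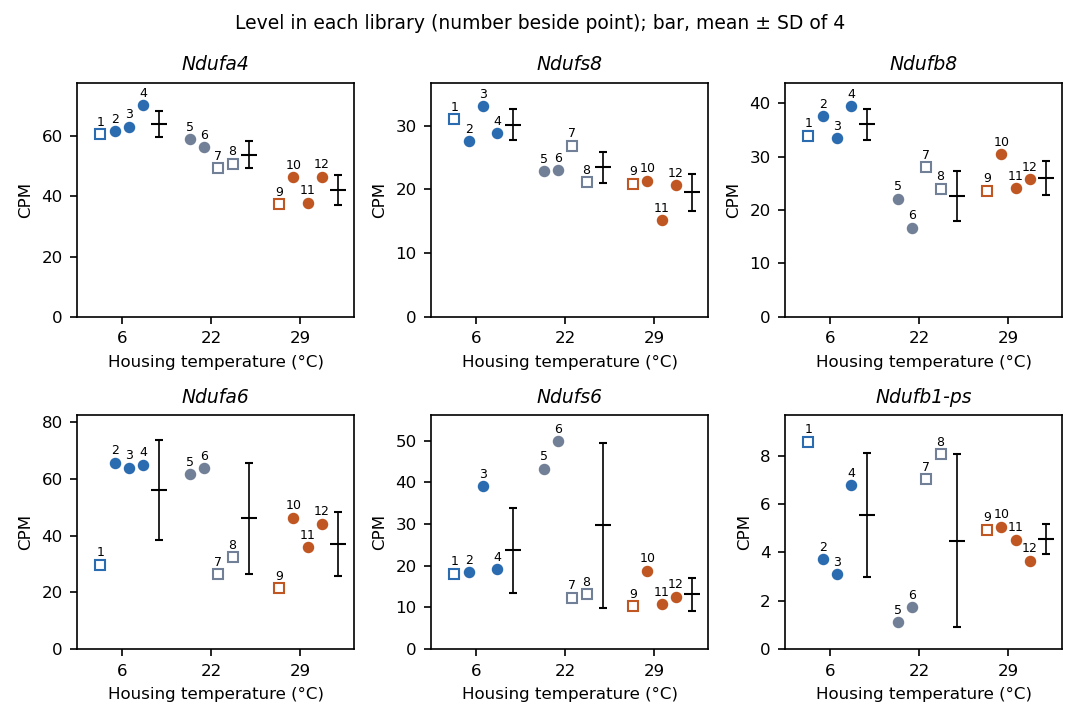
Level of 6 members (CPM, each panel from 0) in each library by housing temperature, with the library number beside each point and the mean ± SD of 4 libraries as a bar. Open squares are the 4 libraries with H2-Ea-ps counts: they form the low cluster of Ndufa6 (21.5 to 32.3 CPM), while Ndufa4 is ordered by temperature and Ndufs6 is highest in libraries 3, 5 and 6 (39.0 to 49.9 CPM).

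Among the 7 nuclear core subunits, 1 (Ndufs8) was lower at 29 °C than at 6 °C and 6 did not pass, with a median log2 fold change of -0.41 and 7 of 7 negative. Ndufv1, the flavoprotein at which NADH is oxidised, had the smallest difference, -0.19 (SE 0.19, adjusted p = 0.628). Ndufv2, its iron-sulphur partner, had -0.69 (SE 0.19, adjusted p = 0.0709). Ndufv2 passed in 6 of 24 alternatives, with adjusted p from 0.00322 to 0.195. Ndufs1, the largest iron-sulphur subunit, read 117, 121, 122 and 144 CPM at 6 °C against 76.9, 108, 96.7 and 103 CPM at 29 °C, without overlap, and did not pass (-0.39, SE 0.13, adjusted p = 0.119).

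The alpha series gave 0 calls among 12, with a median of -0.45 and 11 of 12 negative. Ndufa12, an accessory subunit added late in assembly, had the largest difference of any member, -0.98 (SE 0.31, adjusted p = 0.108). Its levels were low, at 3.89, 3.59, 6.36 and 5.10 CPM at 6 °C and 1.93, 2.84, 2.92 and 1.90 CPM at 29 °C, without overlap. A near copy, Gm15920, is 99.5% identical over 402 bases and averaged 1.14 CPM against 3.58 CPM for Ndufa12, so how the counting divided reads between them affects this value. Ndufa1, a small membrane subunit encoded on the X chromosome, differed by -0.79 (SE 0.25, adjusted p = 0.111). Ndufa8, a disulphide-bonded subunit facing the intermembrane space, showed next to no difference, 0.0032 (SE 0.18, adjusted p = 0.996), with means of 51.0 CPM in both groups. Its sign changed in 11 of 24 alternatives.

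The beta series also gave 0 calls, among 11, with a median of -0.42 and 11 of 11 negative. Ndufb8, a distal membrane-arm subunit whose protein is lost when the complex fails to assemble, had 33.9, 37.6, 33.4 and 39.4 CPM at 6 °C and 23.6, 30.5, 24.1 and 25.8 CPM at 29 °C. The groups did not overlap, and the difference did not pass (-0.47, SE 0.16, adjusted p = 0.120, and from 0.0437 to 0.253 over the alternatives). Ndufb5 came closest in this series (-0.54, SE 0.15, adjusted p = 0.0649). Ndufb3 (-0.74, SE 0.24, adjusted p = 0.110) and Ndufb9, a subunit that binds the acyl carrier protein (-0.73, SE 0.23, adjusted p = 0.110), had the largest differences. The 6 remaining accessory subunits gave 0 calls, with a median of -0.55 and 6 of 6 negative. The largest among them was that of Ndufs6, a zinc-binding subunit of the NADH-oxidising module (-0.85, SE 0.46, adjusted p = 0.339), which was -0.50 without library 3.

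Over all members, 10 had every 29 °C library below every 6 °C library (Ndufa4, Ndufa12, Ndufb3, Ndufb5, Ndufb8, Ndufb9, Ndufs1, Ndufs4, Ndufs8 and Ndufv2), where 6.74% of all genes tested did. None of the 38 had the opposite, against 6.56% of all genes. Ndufa4l2 was the member with the highest estimate (0.15, SE 0.61, adjusted p = 0.924), at 0.463 to 2.5 CPM at 29 °C and 0.636 to 1.86 CPM at 6 °C. Its count was as low as 4 in a library.

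**Figure D2:**
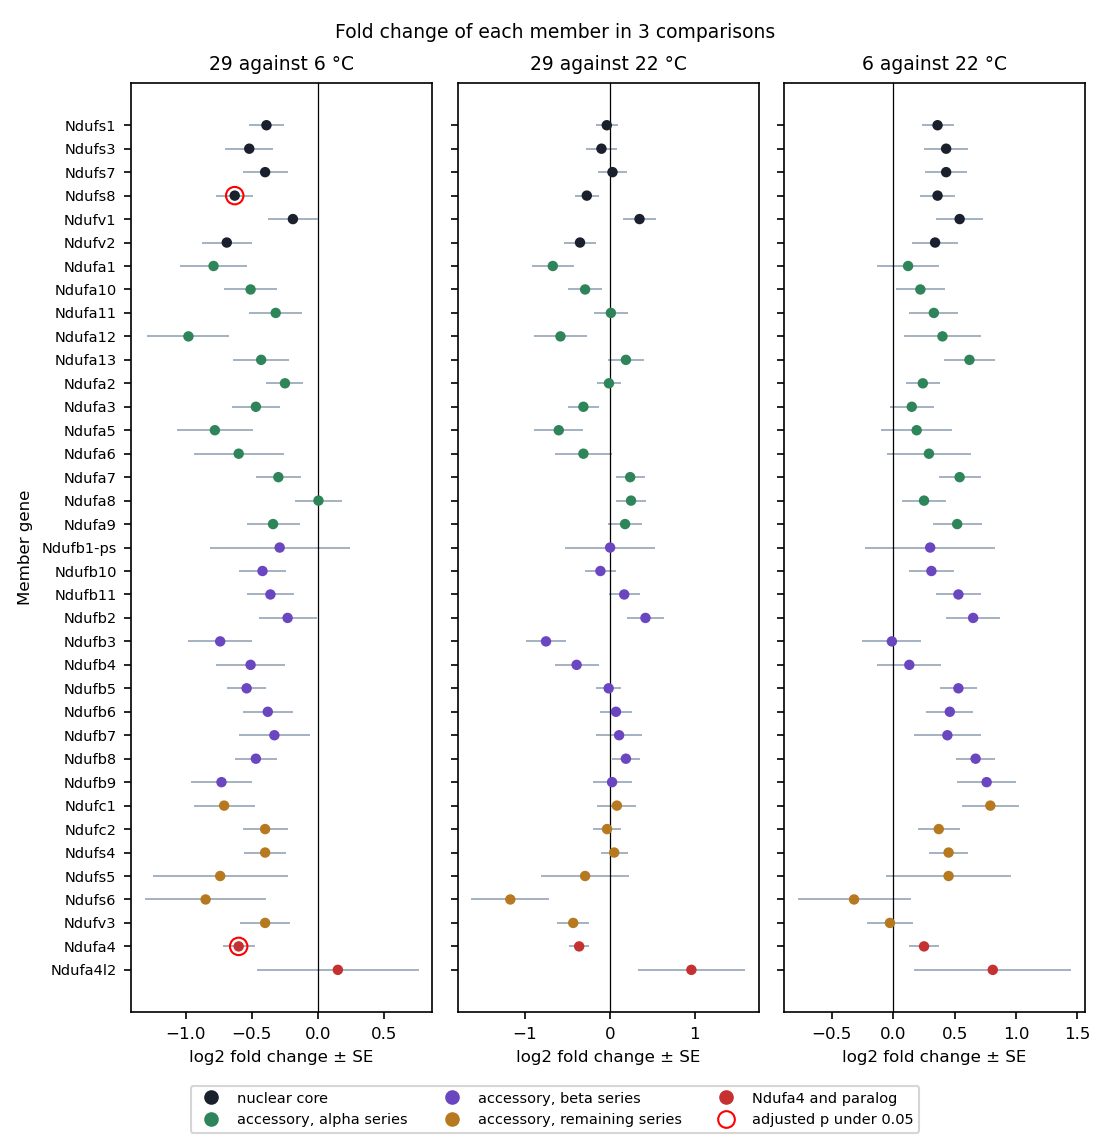
Log2 fold change ± SE of 37 members in the 3 comparisons, coloured by role, with red rings at an adjusted p under 0.05. The rings fall on Ndufa4 and Ndufs8 in the comparison of 29 °C with 6 °C, where 35 of the 37 estimates lie below 0; for 29 °C against 22 °C 20 lie below 0, and for 6 °C against 22 °C 34 lie above it.

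How many members passed in this comparison depended on the fit. DESeq2 called 7 members lower (3.70% of all genes it tested) and limma voom with quality weights also called 7 (4.01%). Both sets held Ndufa1, Ndufa4, Ndufb5, Ndufs8 and Ndufv2. With a term for the H2-Ea-ps libraries, 13 were lower (6.23% of all genes), and without those libraries 10 were lower (4.98%). Fitting only the 8 libraries of these groups gave 3 (1.79%), and omitting the low-count filter gave 1 (0.69%). The count stayed at 2 with DESeq2 size factors (1.37%), upper-quartile factors (1.59%), a stricter low-count filter (1.71%) and library sizes without the most abundant genes (1.4%). A term for the Gm26917 share gave 5 (2.09%), and leaving out the 3 libraries lowest in Gm26917 gave 0, where 0.85% of all genes were called in either direction. No member passed without library 3, 4, 10 or 11, and over all genes the share called in either direction was then 0.44%, 0.306%, 0.269% and 0.467%, against 2.53% with all 12 libraries. Ndufa4 alone passed without library 1 (1.97% of all genes), 5 (2.04%) or 12 (0.977%). Without library 9 (1.38%) the 2 members called were Ndufa1 and Ndufa5. None of these fits called a member higher at 29 °C. The median over members ranged from -0.51 to -0.37 in all 24 alternatives.

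The comparison of 6 °C with 22 °C asks what cold housing does relative to ordinary room temperature, and that of 29 °C with 22 °C what warmth does. The 3 comparisons share libraries, so their results are not independent. At 6 °C against 22 °C, 0 of 38 members passed in either direction, where 0.0333% of all genes were called, 0.0133% lower and 0.02% higher. The estimate was positive for 35 members (47.5% of all genes) and negative for 3 (52.5%), with a median log2 difference of 0.38 against -0.02 over all genes. At an unadjusted p under 0.05, 18 members were higher (6.80% of all genes) and 0 lower (5.11%). DESeq2 called 1 member, Ndufb8 (0.890% of all genes called higher), and limma voom 0 (0.0267% of all genes called).

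In 8 members every 6 °C library was above every 22 °C library (Ndufa4, Ndufa9, Ndufb5, Ndufb8, Ndufb9, Ndufs1, Ndufs4 and Ndufs8), against 3.53% of all genes, and in 0 the reverse held, against 2.81%. Ndufb8 read 22.1, 16.7, 28.0 and 24.0 CPM at 22 °C, all below its 6 °C libraries. Its log2 difference was 0.67 (SE 0.16, adjusted p = 0.204 by edgeR, from 0.0139 to 0.465 over the alternatives). The largest estimates were those of Ndufa4l2 (0.81, SE 0.64, adjusted p = 0.642), Ndufc1, a small membrane-arm subunit (0.79, SE 0.23, adjusted p = 0.259), and Ndufb9 (0.76, SE 0.24, adjusted p = 0.276). The smallest were those of Ndufb3 (-0.012), Ndufv3 (-0.028) and Ndufa1 (0.12), none of which kept its sign in all 24 alternatives. When libraries 1, 7, 8 and 9 were set aside, 9 members were higher at 6 °C (4.48% of all genes). That fit leaves only libraries 5 and 6 at 22 °C, which are also the lowest in Gm26917.

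At 29 °C against 22 °C, 0 of 38 members passed in edgeR, and 0% of all genes did. The signs were divided, with 20 negative and 18 positive, against 50.4% and 49.6% of all genes, and a median of -0.011. At an unadjusted p under 0.05, 5 members were lower (Ndufa1, Ndufa4, Ndufb3, Ndufs6 and Ndufv3; 7.35% of all genes) and 0 higher (7.58%). DESeq2 and limma voom also called 0 members, where they called 2.31% and 0.287% of all genes. The groups did not overlap for Ndufa4 and Ndufb3, both lower at 29 °C (3.79% of all genes), and for no member in the other direction (3.89%). Ndufb3 measured 12.6, 11.3, 6.96 and 9.18 CPM at 22 °C and 6.95, 6.88, 3.97 and 5.96 CPM at 29 °C. Its log2 difference was -0.75 (SE 0.24, adjusted p = 0.213).

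The largest estimate in that comparison was that of Ndufs6, -1.17 (SE 0.46, adjusted p = 0.288). It rested on libraries 5 and 6: the 22 °C values were 43.3, 49.9, 12.3 and 13.1 CPM, and those at 29 °C were 10.3, 18.8, 10.8 and 12.6 CPM. Without the 3 libraries lowest in Gm26917 the estimate was 0.044. Ndufa4l2 had 0.96 (SE 0.63, adjusted p = 0.490). The smallest differences were those of Ndufb1-ps (0.0042), Ndufa2 (-0.0096) and Ndufb5 (-0.013), and all of these changed sign among the alternatives. With libraries 1, 7, 8 and 9 set aside, 7 members were lower at 29 °C (7.74% of all genes) and 3 higher (Ndufa7, Ndufb1-ps and Ndufb2, against 9.35%). The 2 libraries left at 22 °C, 5 and 6, are also the lowest in Gm26917, and no 29 °C library is in that set. Temperature and the Gm26917 share therefore cannot be told apart in that fit.

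The mean was highest at 6 °C for 33 of the 38 members, against 32.6% of all genes. The exceptions were Ndufs6, Ndufb3 and Ndufv3, highest at 22 °C, and Ndufa8 and Ndufa4l2, highest at 29 °C. Library by library, the members were not raised evenly at 6 °C. In library 4 all 38 members were above their own mean log2 level over the 12 libraries, Ndufs6 by less than the rounding, with a median excess of 0.52 on the log2(CPM + 0.5) scale. In libraries 1, 2 and 3 the number was 24, 33 and 34, with medians of 0.16, 0.23 and 0.25. At 22 °C it was 14, 17, 13 and 10, and the medians lay between -0.16 and -0.04.

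At 29 °C the number was 9, 21, 3 and 16 in libraries 9 to 12, so that library 10 had more members above their mean than any 22 °C library and library 11 had the fewest of all. Summed over members, the level was 1300, 1540, 1590 and 1880 CPM at 6 °C. It was 1290, 1290, 1100 and 1120 CPM at 22 °C and 968, 1330, 1090 and 1280 CPM at 29 °C. The sum of library 10 exceeded that of library 1, so the groups overlapped in the sum. Without library 4 the median of 6 °C against 22 °C was 0.29 and that of 29 °C against 6 °C was -0.37.

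Library 4 had the lowest summed level of neutrophil markers and the highest sum of members, and library 9 the reverse. The neutrophil sum was also higher in all libraries with H2-Ea-ps counts (749, 1420, 1100 and 2380 CPM in libraries 1, 7, 8 and 9). The other 8 had at most 722 CPM, in library 11, which had the fewest members above their mean. Library 10 had nearly the same neutrophil sum, 714 CPM, with 21 members above their mean, and library 1, with 749 CPM, had 24. The summed level of the 8 markers was 12.7 CPM in library 4 and 2380 CPM in library 9, and ranged over 12.7 to 749 CPM at 6 °C, 338 to 1420 CPM at 22 °C and 479 to 2380 CPM at 29 °C. Kupffer cell and macrophage markers (10 genes) summed to 513 to 945, 412 to 1110 and 610 to 1350 CPM in the same order. None of either list passed the test between any groups. Their part in the members' levels was not tested. Ucp1, the defining marker of brown fat, was at 0 in all libraries, and the markers of adipocytes summed to at most 12.0 CPM.

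**Figure D3:**
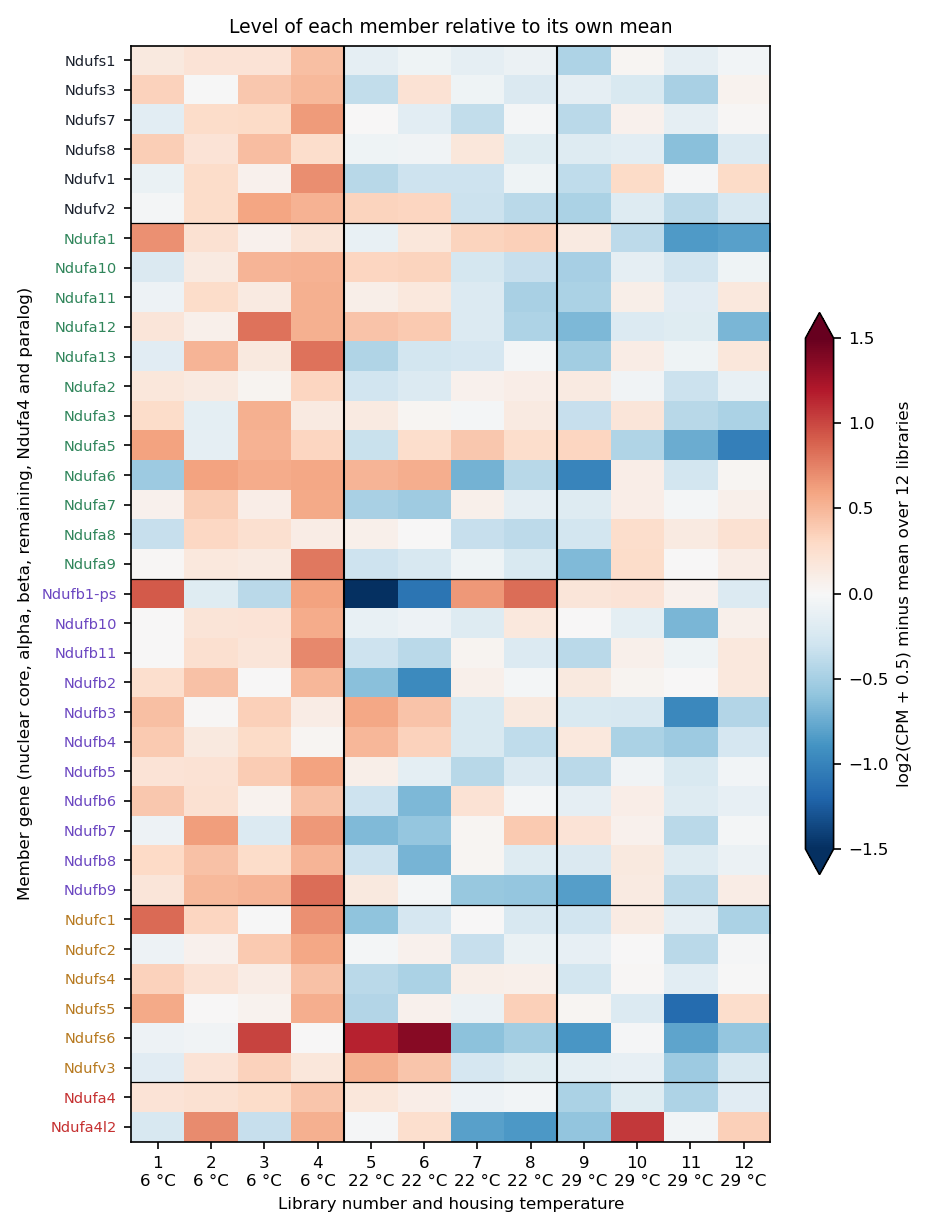
Log2(CPM + 0.5) of 37 members, each minus its mean over the 12 libraries, by library (columns, with housing temperature) and by role (symbols coloured and separated by lines). Library 4 is at or above the mean throughout, and libraries 9 and 11 are above it in 9 and 3 members.

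Some members were divided between the sets of libraries that stood apart. Ndufa6, a subunit that binds the acyl carrier protein, was at 29.7, 26.3, 32.3 and 21.5 CPM in libraries 1, 7, 8 and 9, which held H2-Ea-ps, and at 35.9 to 65.7 CPM in the other 8. Ndufa8 (36.3 to 39.0 against 47.5 to 59.2 CPM) was arranged in the same way, as were 4.78% of all genes, and 0 members were higher in all of these libraries (4.60% of all genes). With the H2-Ea-ps term in the fit, Ndufa6 passed at 29 °C against 6 °C and was the one member that passed at 29 °C against 22 °C (1.88% of all genes called lower). Whether these libraries differ in host strain was not tested, and neither was the part of their higher mitochondrial rRNA share.

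Libraries 3, 5 and 6, the lowest in Gm26917, had Ndufs6 at 39.0, 43.3 and 49.9 CPM against 10.3 to 19.2 CPM in the other 9, with no overlap. Ndufv3 was also higher there (44.3 to 50.9 against 23.8 to 40.1 CPM), as were 4.66% of all genes. Ndufb1-ps was lower, at 3.10, 1.11 and 1.73 CPM against 3.66 to 8.57 CPM, as were 4.5% of all genes. Within the 22 °C group these sets coincide, libraries 5 and 6 against 7 and 8. There 16 members were higher in both of 5 and 6 than in both of 7 and 8 (30% of all genes) and 14 were lower (33.2%).

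The core subunits encoded in mitochondrial DNA had far higher levels and a wider spread. Of 7 mt-Nd genes, 5 had counts enough to be tested, and mt-Nd3 and mt-Nd4l had no count in any library. How reads were counted is not given, so this does not show that their transcripts were absent. The mt-Nd sums below hold nothing from them. In none of the comparisons did any pass. Mean levels at 6, 22 and 29 °C were 2580, 3440 and 1400 CPM for mt-Nd1 and 2110, 3150 and 977 CPM for mt-Nd2. They were 1270, 1690 and 710 CPM for mt-Nd4, 3430, 4290 and 1850 CPM for mt-Nd5 and 364, 366 and 188 CPM for mt-Nd6. The mean was thus highest at 22 °C for all 5, where 33 of the 38 nuclear members were highest at 6 °C. For mt-Nd6 the 6 °C and 22 °C means were nearly equal, with a log2 difference of -0.0081. For mt-Nd1 the 22 °C mean rested on libraries 5 and 6, with 4360 and 5230 CPM against 2170 and 2010 CPM in libraries 7 and 8.

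The median log2 fold change of these 5 was -0.89 for 29 °C against 6 °C, -1.25 for 29 °C against 22 °C and -0.41 for 6 °C against 22 °C. Within groups the spread was wide. Summed over the mt-Nd genes, libraries 1 to 4 at 6 °C had 13200, 4110, 15700 and 5900 CPM. The 22 °C libraries had 16500, 18500, 8340 and 8360 CPM and the 29 °C libraries 8550, 4240, 4390 and 3290 CPM. Libraries 5 and 6, the highest, are also the lowest in Gm26917, and library 3 follows them in both. The part of rRNA depletion in these levels was not tested.

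**Figure D4:**
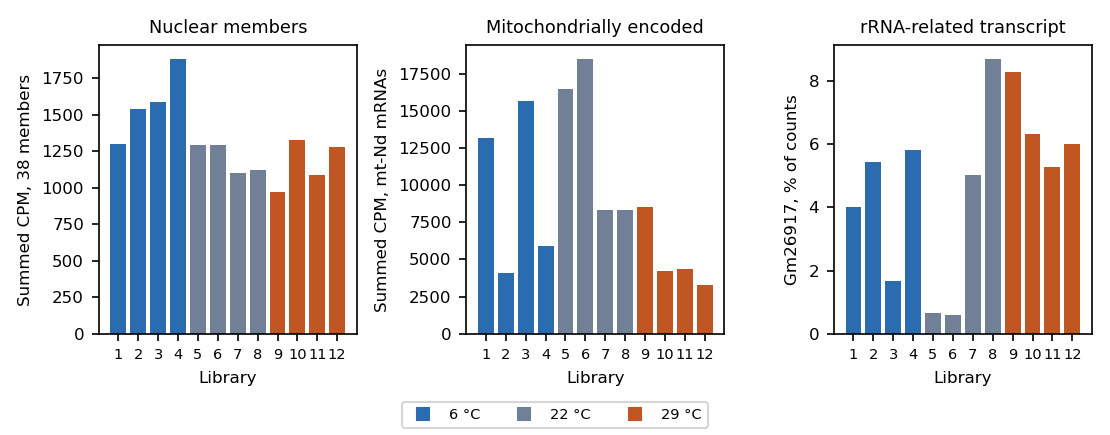
Summed level per library (bars from 0) of the 38 nuclear members and of the mt-Nd mRNAs in CPM, and the share of counts taken by Gm26917 in percent, coloured by housing temperature. The nuclear sum is highest in library 4 (1880 CPM), whereas the mt-Nd sum is highest in library 6 (18500 CPM), where Gm26917 is lowest (0.605%).

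Related genes were described from lists of the same pathway. Ndufab1 had means of 12.1 ± 2.97, 10.9 ± 1.58 and 9.35 ± 2.36 CPM at 6, 22 and 29 °C, and its log2 fold change of 29 °C against 6 °C was -0.38 (SE 0.23, adjusted p = 0.385). The complex I assembly factors, chaperones that build the complex and do not remain in it, gave 0 calls among 18. Their median was -0.30 for 29 °C against 6 °C, with 18 of 18 negative. Their lowest adjusted p were those of Dmac2, a factor for the distal membrane arm (-0.65, SE 0.19, adjusted p = 0.0814), and Ndufaf1, a factor for the membrane arm (-0.56, SE 0.17, adjusted p = 0.0978). In the comparison of 6 °C with 22 °C the median of the assembly factors was 0.38, and in that of 29 °C with 22 °C it was -0.039.

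The other respiratory complexes had medians of the same sign at 29 °C against 6 °C, and few calls, where 1.39% of all genes tested were called lower. Calls in these and the following lists are those of edgeR over all 12 libraries. How they fared in the alternative fits is not given here. Complex II, succinate dehydrogenase, had 0 of 4 called and a median of -0.42, led by Sdhb (-0.52, adjusted p = 0.200) and Sdha (-0.50, adjusted p = 0.221). Complex III had 1 of 9 lower, Uqcr11, a small membrane subunit (-0.79, SE 0.19, adjusted p = 0.0459), and a median of -0.43. In complex IV, whose list leaves out Ndufa4, which is counted here among the 38 members, 0 of 10 were called with a median of -0.58, led by Cox5b (-0.74, adjusted p = 0.0869) and Cox7a2 (-0.67, adjusted p = 0.125). The ATP synthase, complex V, had 2 of 15 lower, Atp5c1, its central stalk subunit (-0.78, SE 0.19, adjusted p = 0.0464), and Atp5j, a peripheral stalk subunit (-0.48, SE 0.12, adjusted p = 0.0482), with a median of -0.48.

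Of 6 genes taken for mitochondrial content, 1 was lower at 29 °C than at 6 °C, Hspd1, the matrix chaperonin (-0.47, SE 0.11, adjusted p = 0.0455). The median was -0.29, with 4 negative and 2 positive. The positive estimates were those of Cs (0.093, SE 0.15) and Tomm20 (0.29, SE 0.16), and neither passed. None of these lists had a gene called in the comparisons with 22 °C. The difference between complex I and the other complexes was not tested.

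Of 12 regulators of mitochondrial gene expression, 1 passed, where 1.13% of all genes tested were called higher at 29 °C than at 6 °C. Pprc1, a coactivator related to PGC-1alpha, was higher at 29 °C than at 6 °C. Its levels were 32.0, 23.3, 21.1 and 15.1 CPM at 6 °C, 32.9, 30.2, 41.1 and 34.4 CPM at 22 °C and 52.0, 50.6, 46.5 and 58.3 CPM at 29 °C. The 29 °C libraries lay above all the others, and the log2 fold change against 6 °C was 1.18 (SE 0.19, adjusted p = 0.0145). Ppargc1a, which encodes PGC-1alpha, had 30.3 ± 5.12 CPM at 6 °C and 17.4 ± 3.62 CPM at 29 °C (-0.80, SE 0.21, adjusted p = 0.0606). Ppargc1b, which encodes the related PGC-1beta, had 15.9 ± 4.92 and 7.83 ± 1.75 CPM (-1.02, SE 0.27, adjusted p = 0.0588). The median of the list was -0.17, with 7 of 12 negative.

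**Figure D5:**
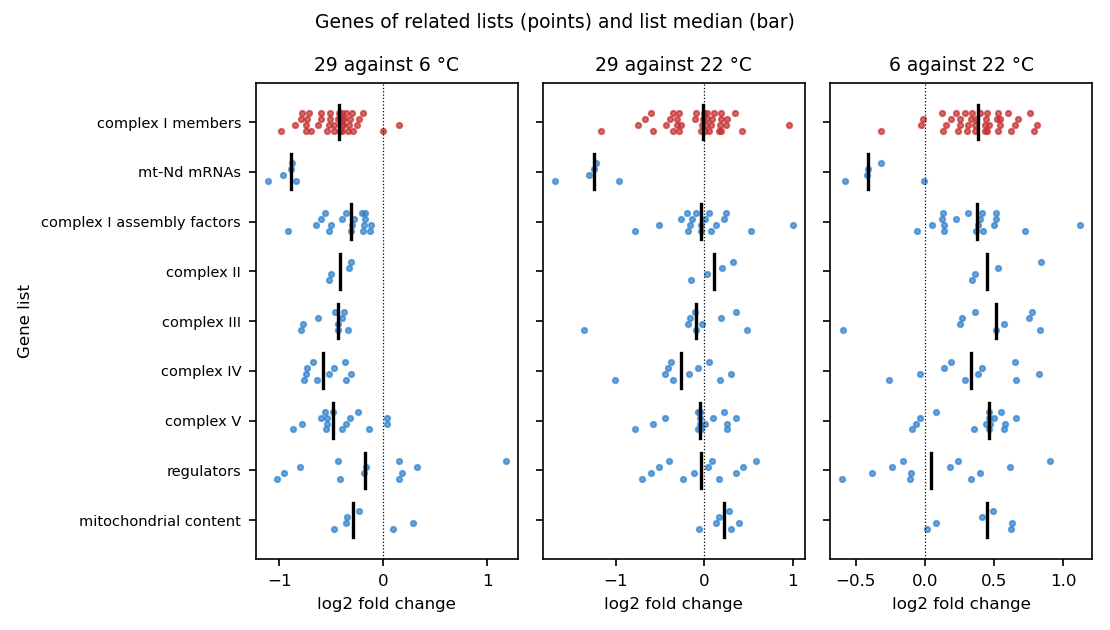
Log2 fold change of each tested gene (points) and the list median (bar) for complex I members and 8 related lists in 3 comparisons. At 29 °C against 6 °C the medians of complexes I to V lie between -0.58 and -0.42, and the regulators spread from -1.02 to 1.18.

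Promoters were compared to see what the members share that their names did not fix. RefSeq windows on GRCm38.p6 that run from 250 bases before to 50 after the transcription start were held for 32 members, in 34 windows. Ndufa2, Ndufa4l2, Ndufb1-ps, Ndufb9 and Ndufs1 were among those with none in the table. The letters AAGATGGC, a motif bound by the factor YY1, were found in 7 of 34 windows (20.6%), against 2.75% of all 32851 windows. All 7 matches lay on the gene's strand between 23 and 39 bases after the start, and in each the ATG within the letters is the annotated start codon. On the gene's strand within the 50 bases after the start, 0.865% of all windows held these letters. The match therefore spans the end of the 5' leader and the first codons. The set of all windows was not matched to the members for length of the 5' leader. The stretches around the match are shown because these 7 windows share it, with the match in capitals.
Ndufc1 (chr3:51408915-51408944, minus strand): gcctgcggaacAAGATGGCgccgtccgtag
Ndufa9 (chr6:126849097-126849126, minus strand): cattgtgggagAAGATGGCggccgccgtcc
Ndufa3 (chr7:3617384-3617413, plus strand): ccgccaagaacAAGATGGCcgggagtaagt
Ndufs7 (chr10:80249462-80249491, plus strand): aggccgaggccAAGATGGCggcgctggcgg
Ndufs6 (chr13:73328433-73328462, minus strand): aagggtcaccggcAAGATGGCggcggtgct
Ndufs4 (chr13:114388045-114388074, minus strand): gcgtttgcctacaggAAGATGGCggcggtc
Ndufb8 (chr19:44555393-44555422, minus strand): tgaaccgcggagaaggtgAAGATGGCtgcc
Of these 7 members none was called by edgeR in any comparison over all 12 libraries without further terms, and neither Ndufa4 nor Ndufs8 is among them.

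The other letters were searched on both strands of the whole windows, each without regard to overlap with the rest. The ETS-type letters CCGGAAG, a binding sequence of GABPA, were in 4 windows (11.8%, against 8.86% of all windows), and the Ndufs8 window was one of them, with the match in its 50 bases after the start. The NRF1-type letters GCATGCGC were in 3 (Ndufa6, Ndufa8 and Ndufa11; 8.82% against 2.71%), and the ERR-type letters AAGGTCA in 3 (Ndufb2, Ndufb4 and Ndufs5; 8.82% against 4.72%). Sp1-type GGGCGG was in 15 (44.1% against 35.7%) and CCAAT in 10 (29.4% against 37.4%). A match describes the letters in a window and does not show that a factor binds there.

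Shared or overlapping sequence limits some members. Copies were searched only among transcripts annotated as pseudogenes, so copies in other genes were not looked for. There, transcripts of 12 members had a copy with at least 90% identity over at least 200 bases, 14 copies in all. The closest were Ndufb4c (100% of the aligned bases of Ndufb4), Gm15920 (Ndufa12), BC002163 (99.4%, Ndufs5) and Gm12251 (98.6%, Ndufs3). Of the 14, only Gm15920 reached more than 14 counts in a library, with 63. A low count of a copy does not show that the member's own level is unaffected. How reads that match both were counted is not given. Exons of 17 members overlapped those of another gene, most on the other strand, including Ndufb6 with Smim27 (39.0% of exonic bases), Ndufa13 with Tssk6 (30%) and Ndufa4l2 with Shmt2 (2.92%), a gene with 174 CPM beside 1.07 CPM. Whether the counting used strand is not given in the sources used here, so these reads cannot be told apart.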

How the data were processed

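The gene counts were deposited by the authors as raw whole-number counts per gene for 12 mouse liver libraries. Per the submitters' processing notes, bcl2fastq, STAR 2.6.1a, DESeq2 1.44.0 and the GRCm38 build were used; which program counted the reads, and whether by strand, is not given in the sources used here. Members were the protein-coding genes whose symbols match the Nduf a, b, c, s and v series. One member is not reported here by name, and counts over members include it. Members, lists and tests were chosen with earlier results of these data known.

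All genes were fitted together in R 4.3.3 with edgeR 4.0.16 (filterByExpr, TMM, robust quasi-likelihood, 3 group means, 9 residual degrees of freedom; biological coefficient of variation 0.321), two-sided, with Benjamini-Hochberg adjustment over 15006 genes and a threshold of 0.05. CPM are counts per 1000000 of TMM-scaled library size. The SE is the log2 fold change divided by the square root of F. The fit was tested on simulated counts, drawn independently for each gene and library with the fitted dispersions. The simulation did not include the library sets that stood apart, so it does not bear on calls that changed with those sets. The 18 pairs of libraries within groups differed by a chi-square of 12.8 to 144 per degree of freedom, so none was counted as the same library sequenced again. That measure is set against counting error alone and cannot show whether libraries come from separate animals. Intervals are not given for levels, since PCR reads are not independent molecules; floors of 3 counts cover counting error only.

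Named with values were members called in any comparison, Ndufa4, Ndufb8, Ndufs8, the 3 largest and 3 smallest differences in each comparison, the highest and lowest levels per length, called genes of each list or else its 2 lowest p, the mt-Nd genes and Ndufab1; members named beyond this rule were chosen after their values were seen. Alternatives were DESeq2 1.42.0, limma 3.58.1 voom, other scalings and filters, terms for the H2-Ea-ps libraries and the Gm26917 share, and leaving libraries out. Lengths and positions came from GENCODE annotation of GRCm38 and promoters from RefSeq. Near copies came from blastn 2.17.0 against GENCODE transcripts annotated as pseudogenes.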

Additional observations from a re-analysis of the deposited data

Results flagged for a closer look

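A library far from the other 3 of its group was found in 5 of the 114 groups of 4 libraries (38 members at 3 temperatures), by Dixon's ratio of the gap to the range; chance alone gives about 1 in 20 groups. Ndufa9, an accessory subunit near the ubiquinone site, had 97.8 CPM in library 4 at 6 °C, where the others had 57.2 to 62.7 CPM. Ndufs6 had 39.0 CPM in library 3 at 6 °C, against 18.1 to 19.2 CPM, and library 3 is one of the 3 lowest in Gm26917. Ndufa6 had 29.7 CPM in library 1 at 6 °C, against 63.9 to 65.7 CPM, and library 1 is one of the 4 with H2-Ea-ps counts. Ndufs8 had 15.2 CPM in library 11 at 29 °C, against 20.7 to 21.4 CPM, and its adjusted p for 29 °C against 6 °C was 0.0974 without that library. Ndufa3, an accessory subunit of the alpha series, had 27.4 CPM in library 10 at 29 °C, against 17.3 to 18.8 CPM.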

How the results depend on the processing

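Which members were called at 29 °C against 6 °C changed when single libraries were left out. The medians over members moved by less than the spread between libraries in all 24 alternatives. Counts of members are followed by the share of all genes tested in that fit that were called in either direction. Members called at 29 °C against 6 °C numbered 2 (2.53%), against 1 with no low-count filter (1.34%), 7 in DESeq2 (7.34%) and 7 in limma voom (7.4%). They numbered 13 with the H2-Ea-ps term (12.6%) and 10 without the H2-Ea-ps libraries (9.91%). There were 5 with the Gm26917 term (3.7%) and 0 without the 3 libraries lowest in Gm26917 (0.85%). Leaving out single libraries gave 0 to 2 (0.269% to 2.89%). At 29 °C against 22 °C, 0 (0%) became 1 with the H2-Ea-ps term (3.44%) and 10 without the H2-Ea-ps libraries (17.1%). At 6 °C against 22 °C, 0 (0.0333%) became 1 in DESeq2 (1.26%) and 9 without the H2-Ea-ps libraries (6.69%). Leaving out single libraries gave 0 in both (0% to 0.51% and 0.0195% to 0.0458%). The cause of these shifts was not tested.

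Some differences changed sign, and the largest of these was Ndufs6 at 29 °C against 22 °C, which was -1.17 with all 12 libraries. For 29 °C against 6 °C, Ndufa8 was -0.0020 with DESeq2 size factors, -0.0050 with upper-quartile factors, -0.0010 with the stricter filter, -0.0011 in DESeq2, -0.0041 with 8 libraries, -0.0052 without the H2-Ea-ps libraries and -0.0028 with library sizes that leave out the most abundant genes. Ndufa4l2 was -0.066 without the 3 libraries lowest in Gm26917. For 29 °C against 22 °C, Ndufa2 was 0.050 with the H2-Ea-ps term and 0.087 without those libraries. Ndufb1-ps was -0.030 with upper-quartile factors, -0.0089 with the stricter filter, -0.62 with the Gm26917 term, -0.73 without the 3 libraries lowest in it and -0.0013 with library sizes that leave out abundant genes. Ndufb5 was 0.022 in limma voom, 0.097 with the Gm26917 term and 0.14 without those 3 libraries. Without them Ndufb8 was -0.0013 and Ndufs6 0.044. For 6 °C against 22 °C, Ndufb3 and Ndufv3 were 0.0014 and 0.031 in limma voom, 0.12 and 0.16 with the Gm26917 term, and 0.26 and 0.30 without those 3 libraries.

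Leaving out single libraries gave ranges across 0 for Ndufa8 (-0.12 to 0.11) and Ndufa4l2 (-0.37 to 0.43) at 29 °C against 6 °C, for Ndufa2 (-0.088 to 0.065), Ndufb1-ps (-0.31 to 0.44) and Ndufb5 (-0.092 to 0.082) at 29 °C against 22 °C, and for Ndufa1 (-0.042 to 0.20), Ndufb3 (-0.15 to 0.12) and Ndufv3 (-0.15 to 0.12) at 6 °C against 22 °C. No paired analysis was possible because the library numbers run from 1 to 12 and no number is shared between groups.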
